A study of Mus musculus with 2 samples.

Results

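The miR-181 family of the mouse consists of 6 hairpin genes in 3 paralogous pairs, Mir181a-1 with Mir181b-1, Mir181a-2 with Mir181b-2, and Mir181c with Mir181d. Its members were taken by symbol in GENCODE M21, and all 6 were found among the 2202 miRNA genes counted. Small RNA was sequenced from the adrenal gland, the source of steroid hormones and catecholamines, of male B6CASTF1/J mice aged 14 days. The labels give no allele, treatment or contrast, only 1 group of 2 libraries numbered as biological replicates 1 and 2. Each biosample label names 3 males and both biosamples share 1 donor record, and the sources used here do not say whether a library pools animals. Levels are given in CPM, the usual read-depth unit, which is the number of reads on the strand of a hairpin scaled to a common total of miRNA reads per library.

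A microRNA gene is transcribed as part of a longer RNA, from which a hairpin is excised and cut into a 5p and a 3p arm. The arm loaded into Argonaute pairs with target messenger RNAs mainly through its seed, and represses them. The miR-181 family is best known for setting T cell receptor sensitivity in developing thymocytes, and has roles in B lymphocytes, endothelial cells and neurons.

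The 5p arms are shown because they decide which reads of the family can be assigned to a gene. All 6 members matched the RefSeq table (GRCm38.p6), which gave 12 mature entries with 10 distinct sequences. Capitals mark the seed, bases 2 to 8 from the 5′ end.
miR-181a-5p, made from Mir181a-1 and from Mir181a-2: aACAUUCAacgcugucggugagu
miR-181b-5p, made from Mir181b-1 and from Mir181b-2: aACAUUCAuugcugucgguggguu
miR-181c-5p, made from Mir181c: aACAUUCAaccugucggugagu
miR-181d-5p, made from Mir181d: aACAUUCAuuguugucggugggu
The 4 distinct 5p sequences had 1 seed in common, and 0 mature names outside the family in the table carried it.

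The pairs repeat 1 plan, in which each locus holds an a-like and a b-like 5p arm. Counted from the 5′ end, miR-181b-5p differed from miR-181a-5p by A9U, C10U and A21G over 23 bases. The sequence of miR-181d-5p differed from that of miR-181b-5p by C12U over 23 bases and was 1 base shorter. Leaving out the base at position 11 of miR-181a-5p gave miR-181c-5p exactly. Thus Mir181c stood in the place of the a hairpin and Mir181d in that of the b hairpin.

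The 3p arms, often the less used strand of this family, were all different. They are shown because they were the mature sequences that told the paralogous hairpins apart, again with the seed in capitals.
miR-181a-1-3p: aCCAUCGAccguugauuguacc
miR-181a-2-3p: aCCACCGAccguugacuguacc
miR-181c-3p: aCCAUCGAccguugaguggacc
miR-181b-1-3p: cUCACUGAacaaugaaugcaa
miR-181b-2-3p: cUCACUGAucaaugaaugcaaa
miR-181d-3p: cCCACCGGgggaugaauguca
The 6 sequences held 4 seeds. Arms a-1-3p and c-3p shared one of them, and b-1-3p and b-2-3p another. The a-2-3p arm differed from a-1-3p by U5C and U16C, of which U5C lies in the seed. The b-2-3p arm differed from b-1-3p by A9U over 21 bases, and the c-3p arm from a-1-3p by U16G and U19G.

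The letters around the shared 5p arms showed how far the identity of 2 loci reached. Below, capitals mark the run common to both hairpins of a letter.
Mir181a-1: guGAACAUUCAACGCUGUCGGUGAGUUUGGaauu
Mir181a-2: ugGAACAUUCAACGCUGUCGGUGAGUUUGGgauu
Mir181b-1: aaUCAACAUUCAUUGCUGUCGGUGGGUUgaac
Mir181b-2: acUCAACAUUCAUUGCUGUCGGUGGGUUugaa
The run was 28 bases for the a hairpins and reached 4 bases past the 3′ end of the 23-base mature sequence. It was 26 bases for the b hairpins and ended with the 24-base mature sequence, after 0 further common bases.

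A read lying wholly within such a run matches both hairpins. The deposited files list reads that map to several places apart from all genes, 27.5% of reads in replicate 1 and 29.4% in replicate 2. Summary rows and genes together summed to 7170915 reads in replicate 1 and 8479789 in replicate 2 in each of the 3 count columns, so each read was counted in 1 row. The counter is not named, so whether all reads of a shared 5p arm were set apart in this way is not recorded. The levels of these 4 hairpins are those of assigned reads and may be too low. By windows of 20 bases, 9 of 68 windows in Mir181a-1 and 9 of 57 in Mir181a-2 were shared, as were 7 of 61 in Mir181b-1 and 7 of 70 in Mir181b-2. Each of these 4 hairpins shared windows with its namesake alone among annotated miRNA genes. In Mir181c 70 of 70 windows and in Mir181d 53 of 53 occurred in no other annotated miRNA hairpin. Over all miRNA genes 49.2% of hairpins shared such a window, and 24.7% of the 364 detected genes did. Matches elsewhere in the genome were not analysed here.

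**Figure D1:**
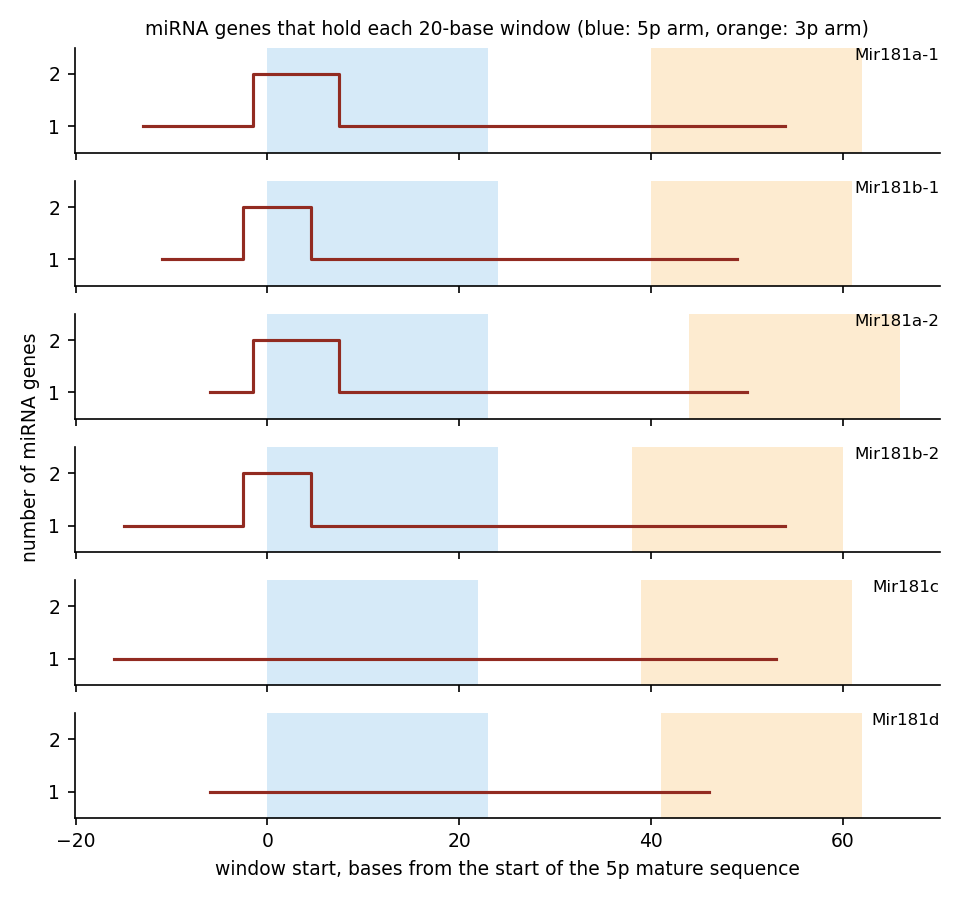
For each hairpin, the number of annotated miRNA genes (y axis) that hold the 20-base window starting at a given distance in bases from the start of the 5p mature sequence (x axis), with the 5p arm shaded blue and the 3p arm orange. Windows inside the 5p arm occur in 2 genes for the a and b hairpins and in 1 gene for Mir181c and Mir181d, and windows inside every 3p arm occur in 1 gene.

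The 3 pairs lie on 3 chromosomes of mm10. Mir181a-1 (ENSMUSG00000065565.1) spans 137966455 to 137966541 and Mir181b-1 (ENSMUSG00000065458.1) 137966639 to 137966718 on the plus strand of chromosome 1. Both lie in an exon of the long non-coding RNA gene A430106G13Rik and in introns of Gm4258 on the same strand, and opposite an intron of the long non-coding Gm26936. Mir181a-2 (ENSMUSG00000065423.1) spans 38852735 to 38852810 and Mir181b-2 (ENSMUSG00000065578.1) 38853830 to 38853918 on the plus strand of chromosome 2. Both lie opposite an intron of Nr6a1, an orphan nuclear receptor gene, Mir181b-2 also opposite an exon of Gm44144, and just outside the antisense gene Nr6a1os, at 365 and 1460 bases. Mir181c (ENSMUSG00000065483.2) spans 84178873 to 84178961 and Mir181d (ENSMUSG00000076338.1) 84178716 to 84178787 on the minus strand of chromosome 8. Both lie in an intron of Nanos3, a germ cell gene, on its strand. The bases between 2 hairpins of a pair were 97 on chromosome 1, 1019 on chromosome 2 and 85 on chromosome 8.

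The hairpins were 72 to 89 bases long, against a median of 84 for detected genes. Their GC content was 58.4% in Mir181c and 51.4% in Mir181d, and between 42.5% and 46.1% in the a and b hairpins. The median over detected genes was 50.2%.

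Replicate 1 held 3024662 sense miRNA counts and replicate 2 held 3464837, so that 1 count was 0.331 and 0.289 CPM. All 6 members were detected, with 2 CPM or more in both libraries, a level that 16.5% of all miRNA genes reached. A mean of 100 CPM was reached by 4 of 6 members and by 8.58% of all genes. Members had a median of 351 CPM, against 124 for detected genes. Sense and unstranded counts were equal in 6 of 6 members, and the opposite strand had 0 counts, where 3 counts would be 0.992 CPM in replicate 1 and 0.866 in replicate 2. Values are means ± SD with n = 2 unless a library is named, and intervals cover counting error only, at 95%.

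By sense totals the family took nearly the same share of miRNA counts in both libraries, although its members did not keep their levels. It held 11142 counts in replicate 1, a share of 0.368% (Clopper-Pearson interval 0.362 to 0.375). In replicate 2 it held 12794 counts, or 0.369% (0.363 to 0.376). The mean level was 3688 ± 6.23 CPM, and the ratio of replicate 2 to replicate 1 was 1.00 (exact conditional interval 0.977 to 1.03). Where reads common to 2 loci were set apart, this sum is too low. The near equality of the libraries depends on the total used, since another scaling shifts the ratios of all members together. The log2 ratio of Mir181c, replicate 2 over replicate 1, was 0.35 with sense totals and 0.21 with unstranded counts. It was 0.46 with DESeq2 size factors and 0.41 without Mir122, the hepatocyte miRNA.

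The Mir181c and Mir181d pair held most of the assigned counts, with 78.2% of the family in replicate 1 (Clopper-Pearson interval 77.4 to 79.0) and 82.8% in replicate 2 (82.1 to 83.5). The Mir181a-2 and Mir181b-2 pair held 16.6% (15.9 to 17.3) and 12.8% (12.2 to 13.4). The Mir181a-1 and Mir181b-1 pair held 5.20% (4.79 to 5.63) and 4.38% (4.04 to 4.75). The order of the 3 pairs was the same in both libraries, and no interval of 1 pair overlapped that of another. The 2 leading members were those whose 5p arm occurs at 1 locus.

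**Figure D2:**
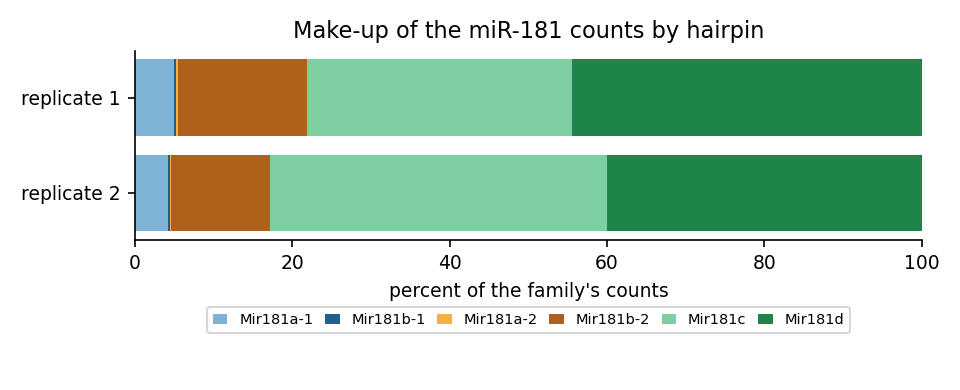
Stacked bars of the percent of the family's counts (x axis) in each of the 6 hairpins, 1 bar per library. Mir181c and Mir181d together fill 78.2% of the bar of replicate 1 and 82.8% of that of replicate 2.

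Mir181d was at 1638 CPM in replicate 1 and 1480 in replicate 2, with 4955 and 5127 counts. Its mean was 1559 ± 112 CPM, which ranked 60 among 2202 miRNA genes. Mir181c was at 1242 CPM in replicate 1 and 1578 in replicate 2, with 3757 and 5467 counts. Its mean was 1410 ± 237 CPM, at rank 63. The libraries of these neighbours overlapped: Mir181d was the higher in replicate 1 and Mir181c in replicate 2. Counts of Mir181d were 1.32 times those of Mir181c in replicate 1 (exact conditional interval 1.26 to 1.38) and 0.938 times in replicate 2 (0.903 to 0.974). Neither interval held 1, so the exchange of order was larger than counting error, but over both libraries the means differed by less than the SD of Mir181c. CPM does not divide by length, since a small RNA read covers an arm and not the hairpin. Per hairpin base Mir181d was the higher in both libraries, at 22.8 and 20.6 CPM per base against 14.0 and 17.7 for Mir181c.

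Mir181b-2 was at 602 CPM in replicate 1 and 466 in replicate 2, from 1821 and 1613 counts. Its mean was 534 ± 96.5 CPM, at rank 107. Its neighbour Mir181a-2 was at 9.92 and 7.50 CPM, from 30 and 26 counts, with a mean of 8.71 ± 1.71 and rank 306. At this locus the b hairpin stood far above the a hairpin by assigned counts. It held 60.7 times as many in replicate 1 (42.4 to 90.2) and 62.0 times as many in replicate 2 (42.2 to 95.3). Reads common to 2 loci may be missing from both hairpins, so these ratios do not show how much each hairpin made.

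On chromosome 1 the order of assigned counts was the opposite one, with the same limit. Mir181a-1 was at 183 CPM in replicate 1 and 155 in replicate 2, from 553 and 536 counts, with a mean of 169 ± 19.9 and rank 156. Mir181b-1 was at 8.60 and 7.22 CPM, from 26 and 25 counts, with a mean of 7.91 ± 0.976 and rank 310. By assigned counts the a hairpin exceeded the b hairpin by 21.3 times in replicate 1 (14.4 to 32.9) and 21.4 times in replicate 2 (14.4 to 33.4). Both members with few counts, Mir181b-1 and Mir181a-2, differed by less than their spread.

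The order of the mean levels, in CPM and per hairpin base alike, was Mir181d, Mir181c, Mir181b-2, Mir181a-1, Mir181a-2 and Mir181b-1. In CPM only the first 2 and the last 2 of that order were closer than their spread between libraries. Per hairpin base Mir181d and Mir181c did not overlap, at 20.6 or more against 17.7 or less. The step from Mir181b-2 to Mir181a-1 and that from Mir181a-1 to Mir181a-2 held in both libraries without overlap.

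**Figure D3:**
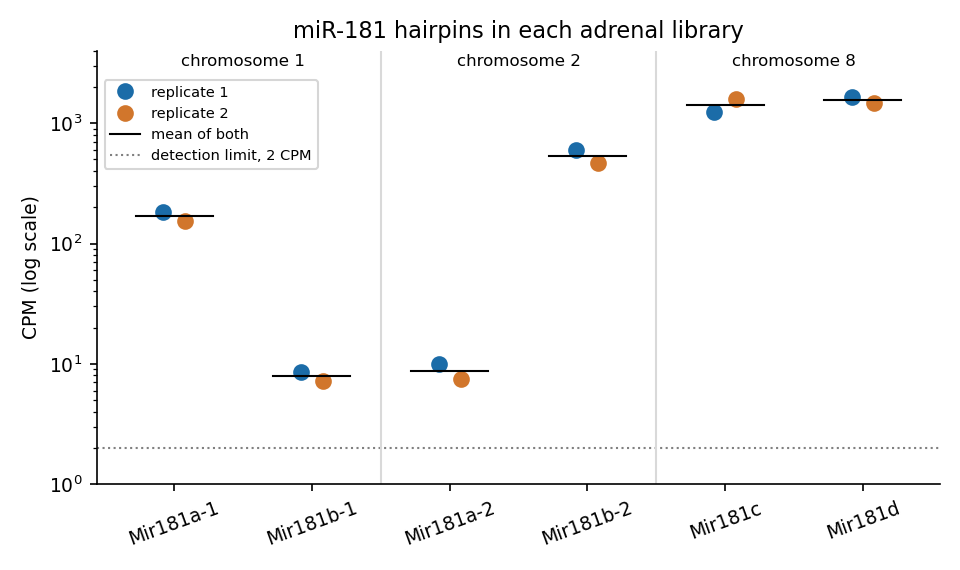
CPM on a log scale (y axis) of the 6 hairpins (x axis), grouped by chromosome, with 1 point per library, a line at the mean of both and a dotted line at the detection limit of 2 CPM. Within the chromosome 1 pair Mir181a-1 is the higher point, within the chromosome 2 pair Mir181b-2 is, and Mir181c and Mir181d overlap at 1242 CPM or more.

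Read by letter rather than by locus, 1 hairpin of each letter held nearly all assigned counts. Of the counts of both a hairpins, Mir181a-1 took 94.9% in replicate 1 (Clopper-Pearson interval 92.7 to 96.5) and 95.4% in replicate 2 (93.3 to 97.0). Of the counts of both b hairpins, Mir181b-2 took 98.6% (97.9 to 99.1) and 98.5% (97.8 to 99.0). By assigned counts, the leading a hairpin was thus on chromosome 1 and the leading b hairpin on chromosome 2. A read of the mature miR-181a-5p or miR-181b-5p sequence alone matches both loci. These counts therefore do not show which locus made more of either mature sequence. Which arm those counts came from is not recorded in the deposited files.

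A lead of this size also occurred in other miRNAs with 2 loci. Apart from Mir181a and Mir181b, 21 miRNAs whose gene symbols differ in the last number alone had 2 loci and 100 or more counts in both libraries together, and in 21 of them the 2 hairpins shared a 20-base window. Their leading locus held 50.8% to 100% of counts, with a median of 82.3%, and 90% or more in 6 of 21. The mean of 95.1% for Mir181a was exceeded in 5 of them and the 98.5% for Mir181b in 1. Over all 138 genes of 53 miRNAs with several loci, 47 were detected (34.1%).

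**Figure D4:**
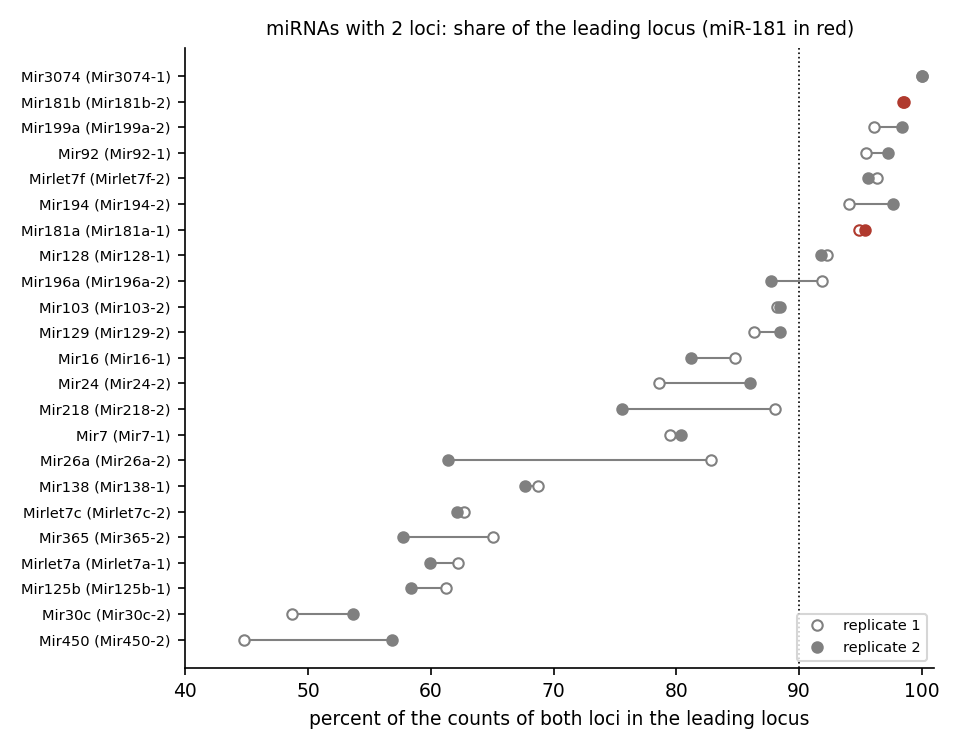
Percent of the counts of both loci that lie in the leading locus (x axis) for each miRNA with 2 loci and 100 or more counts (y axis, leading locus in brackets), with open points for replicate 1, filled points for replicate 2 and a dotted line at 90%. Mir181b and Mir181a, in red, lie at 98.5% and 95.1% on average, beside 6 of 21 others at 90% or more.

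Between the libraries 1 member was higher and 3 were lower in replicate 2 by an exact binomial test, adjusted by Benjamini-Hochberg over 413 genes, and 2 did not pass. This test sets 1 library against another and covers counting error only. It called 28.8% of the 413 genes higher and 26.6% lower, 55.4% in all, so 4 of 6 members called is near the background.

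Mir181c was 1.27-fold higher in replicate 2 (exact conditional interval 1.22 to 1.32; adjusted p = 3.63e-29). Mir181b-2 was 1.29-fold lower (1.21 to 1.38; adjusted p = 2.06e-13), and Mir181d was 1.11-fold lower (1.06 to 1.15; adjusted p = 1.03e-06). Mir181a-1 was 1.18-fold lower (1.05 to 1.33; adjusted p = 0.0130). The ratios of Mir181b-1 and Mir181a-2, replicate 2 over replicate 1, were 0.839 (0.465 to 1.51; adjusted p = 0.691) and 0.757 (0.430 to 1.32; adjusted p = 0.462). At 26 and 30 counts or fewer a library, a difference of the size seen in Mir181b-2 was not detectable in them.

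These differences were of ordinary size for this pair of libraries. The median absolute log2 ratio over 189 genes at 100 CPM or more was 0.33. The log2 ratio of Mir181c was 0.35, larger in size than that of 99 of the 189 genes, and that of Mir181b-2 was -0.37, larger than that of 105. Those of Mir181a-1 and Mir181d were -0.24 and -0.15, larger than those of 75 and 49.

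Other settings bore on the smaller calls. With DESeq2 size factors, which moved the median log2 ratio of tested genes from 0.03 to 0.14, Mir181a-1 and Mir181d no longer passed (adjusted p = 0.216 and 0.333), and the calls over all genes changed from 119 higher and 110 lower to 149 and 85. With unstranded counts, which also change the counts of single genes and left 387 genes to test, the calls were 74 and 139, at a median of -0.14. Without Mir122, the hepatocyte miRNA, Mir181a-1 did not pass (adjusted p = 0.0818). With these 3 settings and with TMM, the log2 ratio of each of the 6 members kept its sign. The counts of the members were the same in all of them, so each setting shifted the 6 ratios by a common amount.

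**Figure D5:**
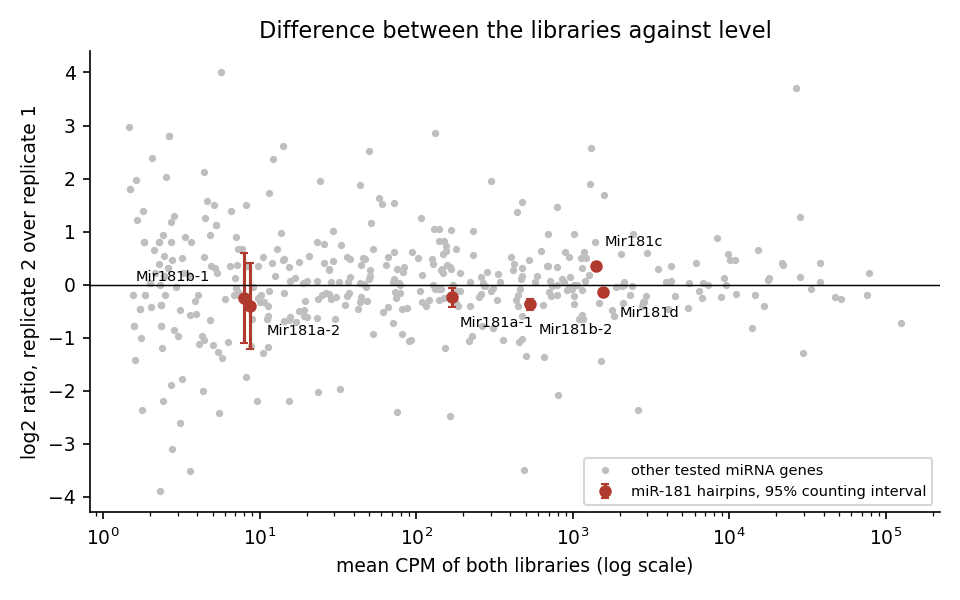
Log2 ratio of replicate 2 over replicate 1 (y axis) against mean CPM on a log scale (x axis) for the 413 tested miRNA genes, with the 6 miR-181 hairpins in red and their 95% counting intervals as bars. Mir181c lies above 0 at 0.35, the other 5 lie below 0, and all lie inside the spread of the grey points at their level.

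A ratio within a pair does not depend on the library total. The ratio of a to b hairpin moved by 0.01 on the log2 scale between libraries on chromosome 1 and by 0.03 on chromosome 2, although the 25 to 30 counts of the lower hairpin leave wide intervals. The ratio of Mir181c to Mir181d was 0.758 in replicate 1 (exact conditional interval 0.727 to 0.791) and 1.07 in replicate 2 (1.03 to 1.11), a move of 0.49. Among 99 other pairs of detected neighbours, on the same strand and under 10000 bases apart, the median move was 0.45, and 48 moved by more than Mir181c and Mir181d. The chromosome 1 and 2 pairs were among the least moved, with 97 and 95 of the 99 moving by more. At 25 to 30 counts moves this small are below counting error, so their rank does not measure stability. This set of neighbours was chosen after the miR-181 values were seen.

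The gap within a pair was a description of another kind. By assigned counts, the mean absolute log2 ratio of 2 neighbours was 4.42 for the chromosome 1 pair and 5.94 for the chromosome 2 pair. The median over the 99 pairs was 2.40, and 29 and 9 of them had a larger gap. For Mir181c and Mir181d the gap was 0.25, and 95 of 99 pairs had a larger one. Reads common to both loci of a letter may be missing from the a and b hairpins. Whether their gaps reflect the output of the hairpins or only which reads could be assigned was not tested.

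The levels most like those of the leading hairpins, by distance on log2(CPM + 1) over the 2 libraries, were as follows. Nearest to Mir181d were Mir337 at 1471 ± 241 CPM, with a distance of 0.19, and Mir140 at 1773 ± 417, with 0.34. Nearest to Mir181b-2 were Mir149 at 508 ± 87.3 CPM (0.10) and Mir467d at 476 ± 136 (0.30). Nearest to Mir181a-1 were Mir196a-2 at 159 ± 18.8 CPM (0.12) and Mir1981 at 180 ± 30.1 (0.14). With 2 libraries such likeness says only that level and ratio were close.

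The miRNAs that mark other cell types also differed between the libraries. Some of these types, such as hepatocytes and kidney cells, are not cells of the gland. In whole tissue fewer cells of a type cannot be told apart from less RNA per cell, and whether tissue from outside the gland was included was not tested. The white blood cell list summed to 4878 CPM in replicate 1 and 2610 in replicate 2, with 1 member higher, 4 of 5 lower and 0 at 0 counts. Mir150, a miRNA of mature lymphocytes, was at 729 and 560 CPM, and Mir142, a general blood cell miRNA, at 2223 and 825. Mir146 was at 1412 and 900 CPM and Mir155 at 483 and 236. These moved in the direction of the 3 lower members and against that of Mir181c. Their part in the miR-181 differences was not tested.

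The endothelial marker Mir126a was at 155646 and 94732 CPM, 0.609 times in replicate 2, again the direction of the 3 lower members. The red blood cell list summed to 43959 and 19202 CPM, with 0 higher, 2 of 3 lower and 0 at 0 counts. It was led by Mir451a at 41828 and 17126 CPM, while Mir144 was at 2093 and 2053. The smooth muscle and mesenchyme list was at 53182 and 45535 CPM, with 1 of 4 higher, 2 lower and 0 at 0 counts. Mir143 led it at 51309 and 43537 CPM, and Mir145a and Mir214 were at 1064 and 1062 and at 703 and 881 CPM.

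Lists that were higher in replicate 2 went with Mir181c in direction. Since members moved both ways, any list that differs goes with some of them. Of all tested genes, 28.8% were called higher and 26.6% lower in replicate 2. The neuroendocrine and neural list was at 31870 and 35089 CPM, with 3 of 10 higher and 0 lower. Its defining neuronal members Mir124a-2, Mir124a-3 and Mir9-2 had 0 counts, and Mir124a-1, Mir9-1 and Mir9-3 were below 1 CPM, while their hairpins also occur at several loci. Mir375 was at 26615 and 29592 CPM, Mir7b at 4120 and 4312, Mir137 at 816 and 882 and Mir7-1 at 318 and 304. The hepatocyte marker Mir122 was at 3786 and 49474 CPM. The kidney and epithelium list was at 853 and 1828 CPM, with 5 of 6 higher, 1 lower and 0 at 0 counts, among them Mir203 at 697 and 1344 and Mir192 at 32.1 and 231. The part of these cell types in the miR-181 differences was not tested.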

How the data were processed

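MicroRNA-seq was done on 2 adrenal gland libraries. The authors deposited raw, unnormalized read counts for each annotated miRNA hairpin, in a separate file for each library. The deposited notes name mm10 and GENCODE M21, and the sources used here do not give the aligner, the counter or their versions. A file has 3 count columns and 4 summary rows, which stayed out of library sizes. The sense column was used. Reads assigned to miRNA genes were 42.2% and 40.9% of the 7170915 and 8479789 reads in replicates 1 and 2. Unmapped reads were 23.5% and 23.0%, and reads in no feature 6.79% and 6.65%.

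The test between libraries was a two-sided exact binomial test of each gene's counts against the library totals. It was checked on simulated counts that held counting error only, which cannot show how it behaves with other spread between libraries. It took genes with 10 or more counts in both libraries together, with Benjamini-Hochberg adjustment at 0.05. Hairpin windows of 20 bases came from GENCODE transcripts, mature sequences from RefSeq. All 6 members were named, with the 2 nearest genes for the leader of each pair and list members at 100 CPM or more. Neuronal miRNAs with few or no counts were named outside that rule, after their values were seen. Members and lists were chosen with earlier results of these data known. Alternatives were other scalings, filters, limits, stretches, strands and single libraries. Scaling factors came from edgeR 4.0.16 and DESeq2 1.42.0 in R 4.3.3. Other steps used SciPy 1.17.1, pandas 2.3.3, NumPy 2.4.6 and matplotlib 3.10.9 under Python 3.11.15. PCR copies are not independent molecules, and p-values measure only the spread that counting gives.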

Additional observations from a re-analysis of the deposited data

Results flagged for a closer look

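Reads mapping to several places enter no comparison. They made up 27.5% of reads in replicate 1 and 29.4% of those in replicate 2, and no control samples exist to set them against. A read holding only the mature miR-181a-5p or miR-181b-5p sequence matches 2 loci, and the files do not give the number of such reads. Outlying samples and group differences cannot be sought with 2 libraries of 1 group.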

How the results depend on the processing

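Of 90 alternatives computed, 76 stayed within the limits set (sign and side of the threshold for a test, 1.5 times for a count, 1 SD for another value), 11 went past them and 3 took a member out of the calls. Part of the 76 could not do otherwise, so their number does not measure robustness. Either library of 2 always lies within 1 SD of their mean. Unstranded counts were equal to sense counts in the members, which fixed the shares within the family. The log2 ratio of no member changed sign, but filters leave these ratios as they are and scalings shift all of them by a common amount. The ratio of Mir181c to Mir181d lay on the other side of 1 without replicate 1. As a mean of both libraries, the family share was 0.502% with unstranded counts, 0.379% without Mir122 and 0.440% without the other genes that share 20 bases. Each library alone gave 0.368% to 0.369% by sense totals, and shares by the other totals were not split by library. At a limit of 10 CPM, 4 members were detected, against 6 at 1, 2 or 5 CPM. With DESeq2 size factors 1 member was lower in replicate 2, and without Mir122 it was 2, against 3. Each library alone gave 4.38% to 5.20% for the Mir181a-1 pair, 12.8% to 16.6% for the Mir181a-2 pair and 78.2% to 82.8% for the Mir181c pair, and ratios of Mir181a-1 to Mir181b-1 of 21.3 to 21.4, of Mir181a-2 to Mir181b-2 of 0.0161 to 0.0165 and of Mir181c to Mir181d of 0.758 to 1.07. Stretches of 18 or 22 bases left 4 members with shared sequence. No paired analysis was possible because there is 1 group. Depth limits Mir181b-1 and Mir181a-2, at 25 to 30 counts.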
